A study of Mus musculus with 38 samples.

Results

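The 7 genes described here, Cspg4, Ptprz1, C1ql1, Matn4, Lhfpl3, Rlbp1 and Scrg1, are known from oligodendrocyte progenitors and encode mostly surface, secreted or matrix proteins. They were picked by symbol from the 15644 genes that the arrays measured, each with 1 probe set, and all 7 passed the filter on dim signals. The arrays held RNA from translating ribosome affinity purification (TRAP), in which tagged ribosomes are pulled out of 1 labelled cell population together with the transcripts bound to them (bound RNA). The other samples were RNA of the whole tissue (total RNA). The tumour samples came from the Recruited, the Pdgf Cre and the Pdgf variations of a murine glioma model, each with 3 arrays of Olig2 cell bound RNA and 3 of total RNA. The cortical samples came from adult wild type cortex, in pools of 2 or more mice. Their bound RNA was of progenitors (Pdgfra reporter line), oligodendroglia of all stages (Olig2 line), mature oligodendrocytes (Cnp1 line), astrocytes (Aldh1L1 line) and neurons (Snap25 line), with 3 arrays each, and their total RNA filled 5 arrays. All mice were of a mixed background of c57/bl6j, FVB and Swiss-Webster. The tumour alleles and vectors, the ages of the tumour mice, the promoter fragments of the reporter lines and any pooling of tumours are not given in the sources used here. The tumours form dataset 2 and the cortex dataset 1 of the series, so dataset and tissue cannot be told apart. The title of the series asks about differentiation and quiescence of progenitor-like cells in glioblastoma.

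Oligodendrocyte progenitors, also called NG2 glia, are the dividing cells of the adult brain from which myelinating oligodendrocytes arise. They carry a coat of chondroitin sulphate proteoglycans and secrete small matrix and synaptic proteins, and they turn many of these genes off as they mature. Cspg4 encodes the NG2 proteoglycan, a transmembrane protein also found on pericytes. Ptprz1 encodes a receptor tyrosine phosphatase that carries chondroitin sulphate and binds the growth factors pleiotrophin and midkine, and astrocytes make it too. C1ql1 encodes a secreted C1q-like protein that binds the receptor Adgrb3, Matn4 encodes matrilin-4 of the extracellular matrix, and Scrg1 encodes a small secreted protein first found as a transcript raised in scrapie. Lhfpl3 encodes a membrane protein with 4 spans of the LHFPL family. Rlbp1 encodes a retinaldehyde-binding protein known from Muller glia of the retina, and is neither a surface nor a matrix protein.

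Levels are log2 signals after a common quantile normalization of all 38 arrays, given as mean ± SD. A level under log2 50 (5.64) is called dim. A gene rose or fell where limma's adjusted p (Benjamini-Hochberg over 9799 tested genes) was under 0.05 and the change was at least 2-fold. Where 1 of 2 groups was dim, the fold is a lower bound computed against 5.64 and is written "at least". Where both were dim, no fold is given. Levels are not compared between genes, since each has its own probe set. Among cortical bound RNA, each reporter line's gene had its highest mean in its own line: Pdgfra at 10.35 in progenitors, Olig2 at 12.47 in Olig2 cells, Cnp at 14.23 in mature oligodendrocytes, Aldh1l1 at 11.45 in astrocytes and Snap25 at 15.46 in neurons. The separation was not complete, with Snap25 at 14.67 and Cnp at 11.43 in progenitors and Olig2 at 12.29 there with overlapping arrays, whereas Pdgfra was dim in mature oligodendrocytes, astrocytes and neurons. All 7 measured markers of progenitors were above the dim limit in progenitor RNA (mean of the list 11.004 to 11.1). That RNA also held signal of the 8 mature oligodendrocyte markers (all above the limit, list mean 10.8 to 11.2) and of 7 of 8 neuron markers (9.06 to 9.20), whereas 0 of 10 pericyte and smooth muscle markers were above it (2.51 to 2.53). The third total RNA array of the Recruited tumours stood apart, with a correlation across genes of 0.885 with the mean of cortex total RNA, against 0.700 to 0.799 for the other tumour total RNA arrays. Its Pdgfra level was 7.82, against 11.54 and 11.63 in the other two, and its Snap25 level was 15.55, against 14.58 and 14.47. Results of the members in Recruited tumours are therefore also given without the arrays numbered 3 of both bound and total RNA. The bound array was left out by its number, and the correlation above was not computed for bound arrays. The labels do not say that arrays of a group are separate animals or preparations. The p-values thus measure spread between arrays within groups, and the number of arrays limits the precision. That spread is shared per gene over all 12 groups, so wide Recruited total RNA arrays also weigh on comparisons without them. For example, the SD of Cspg4 was 2.33 in Recruited total RNA and 0.83 in Recruited bound RNA, the next widest group.

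Promoter sequence was matched for 5 of the 7 genes. Of these, Cspg4 and Matn4 were dim in mature oligodendrocytes, astrocytes, neurons and cortex total RNA, and Lhfpl3 was lowest in the same groups. With these low values included, the levels of these 3 genes followed each other most closely over the 12 groups, so their windows are shown (Pearson r of group means 0.962 for Cspg4 with Matn4, 0.932 for Matn4 with Lhfpl3 and 0.911 for Cspg4 with Lhfpl3, a description with no test, on 1 shared scale). Each is the 250 bases before the RefSeq start (GRCm38.p6, the build of the sequence table; the array files name none), read 5′ to 3′ on the gene's strand, with searched motifs in capitals. The windows are chr9:56864854-56865103 on the plus strand for Cspg4, chr2:164405161-164405410 on the minus strand for the outer start of Matn4, and chr5:22745804-22746053 on the plus strand for Lhfpl3.
Cspg4: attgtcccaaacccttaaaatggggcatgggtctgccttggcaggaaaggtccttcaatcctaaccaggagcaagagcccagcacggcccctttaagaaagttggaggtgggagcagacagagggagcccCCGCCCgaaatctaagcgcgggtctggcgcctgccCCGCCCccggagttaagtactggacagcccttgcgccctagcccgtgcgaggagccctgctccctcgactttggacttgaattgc
Matn4: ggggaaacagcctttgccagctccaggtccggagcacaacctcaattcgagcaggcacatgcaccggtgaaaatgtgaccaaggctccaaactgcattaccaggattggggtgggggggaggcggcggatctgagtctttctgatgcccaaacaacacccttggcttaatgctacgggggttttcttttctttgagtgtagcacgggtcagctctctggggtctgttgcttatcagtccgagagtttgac
Lhfpl3: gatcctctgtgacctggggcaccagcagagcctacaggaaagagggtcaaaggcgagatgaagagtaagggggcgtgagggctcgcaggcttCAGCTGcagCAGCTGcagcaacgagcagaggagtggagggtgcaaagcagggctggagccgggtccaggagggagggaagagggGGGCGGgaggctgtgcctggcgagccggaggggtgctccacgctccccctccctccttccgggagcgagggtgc
The E-box CAGCTG, of the kind bound by basic helix-loop-helix factors, was found in the Lhfpl3 window alone among 6 windows of the members, at -158 and -149, and in 13.0% of 32851 windows of the same length over all genes. The GC box GGGCGG (either strand) was found in Cspg4, at -120 and -85, in Lhfpl3, at -74, in Ptprz1 and at the inner start of Matn4, and in 32.7% of all windows. Of the Sox-type words, ACAAAG (16.5% of all windows) was found in Rlbp1 and ACAATG (10.7%) in none of the 6. TATAAA (12.4% of all windows) was found in Rlbp1. The Matn4 window printed here held none of these words. The words do not overlap each other in the printed windows, and a match is a description of the letters only. GC content was 60.4% for Cspg4, 54.4% for Matn4 and 67.2% for Lhfpl3, against a median of 52.4% over all windows.

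Among the surface proteoglycans, Cspg4 was at its highest in Pdgf Cre tumours. Its bound RNA read 9.49, 9.82 and 8.25 in Recruited tumours, 11.83, 11.07 and 11.56 in Pdgf Cre tumours and 10.002, 9.81 and 9.73 in Pdgf tumours. In bound RNA of cortex it read 9.42, 9.45 and 9.83 in progenitors, 9.11, 8.37 and 8.42 in Olig2 cells and about 4.09 in each array of mature oligodendrocytes, and it lay at 2.08 in astrocytes and neurons. The 3 Pdgf Cre arrays were thus above every other bound array, while Pdgf tumours, progenitors, Recruited tumours and cortical Olig2 cells followed in that order, each overlapping the next. Total RNA gave 9.11, 8.87 and 4.96 in Recruited tumours, 11.24, 10.38 and 11.18 in Pdgf Cre tumours, 10.61, 10.41 and 10.14 in Pdgf tumours and 2.47 ± 0.01 (n = 5) in cortex. The low value in Recruited tumours was that of the third array, and cortex total RNA was dim throughout.

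Ptprz1 was shared by progenitors and astrocytes. Bound RNA read 11.51, 11.64 and 10.14 in Recruited tumours, 10.74, 9.95 and 10.25 in Pdgf Cre tumours and 10.46, 10.90 and 10.40 in Pdgf tumours. It read 10.15, 10.34 and 10.03 in progenitors, 8.79, 8.40 and 9.20 in cortical Olig2 cells and 10.80, 10.68 and 10.84 in astrocytes, and was dim in mature oligodendrocytes (2.88 ± 0.01, n = 3) and neurons (2.995 ± 0.01, n = 3). The 3 tumour groups, astrocytes and progenitors formed a run of overlapping neighbours, and cortical Olig2 cells lay below it. Total RNA read 12.76, 12.33 and 10.11 in Recruited tumours, 13.18, 12.55 and 13.09 in Pdgf Cre tumours and 12.84, 13.08 and 12.82 in Pdgf tumours. Cortex total RNA lay between 8.75 and 9.75 over 5 arrays, with a median of 9.26, and no tumour total RNA array fell in that range.

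C1ql1, a secreted protein, split the 3 tumour models. Its bound RNA read 5.82, 5.49 and 5.42 in Recruited tumours, 7.79, 6.73 and 7.78 in Pdgf Cre tumours and 9.17, 9.76 and 8.89 in Pdgf tumours. Progenitors had 6.79, 7.59 and 7.64 and cortical Olig2 cells had 8.05, 8.43 and 8.38. The groups did not overlap except Pdgf Cre tumours with progenitors, and Pdgf tumours were the highest of all 12 groups. It was dim in mature oligodendrocytes (2.10 ± 0.05), astrocytes (4.18 ± 0.03) and neurons (2.08), with n = 3 each. Of the total RNA groups, Pdgf tumours (7.34, 7.63 and 7.92) were above the dim limit, whereas Recruited tumours (2.32 ± 0.42, n = 3), Pdgf Cre tumours (3.10 ± 0.48, n = 3) and cortex (2.11 ± 0.07, n = 5) were dim.

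Matn4, the matrilin, was either bright or at the floor of the scale. Bound RNA read 10.18, 11.01 and 9.79 in Recruited tumours, 10.62, 10.29 and 9.95 in Pdgf Cre tumours and 10.33, 11.08 and 8.21 in Pdgf tumours. It read 9.11, 9.80 and 10.69 in progenitors and 9.38, 9.28 and 6.97 in cortical Olig2 cells. It lay at 2.08 in mature oligodendrocytes, astrocytes, neurons and cortex total RNA. Ordered by level, each of the 5 bright bound groups overlapped the next, and the third array of both Pdgf tumours and cortical Olig2 cells was the low one. Total RNA of Recruited tumours read 11.36, 11.18 and 5.81, the third array again being low, and that of Pdgf Cre and Pdgf tumours averaged 10.16 ± 0.42 and 9.23 ± 0.34 (n = 3 each).

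Scrg1, the other secreted protein, read higher in tumour Olig2 cells than in any cortical population on the normalized scale. Bound RNA read 12.86, 12.67 and 12.76 in Recruited tumours, 13.40, 13.03 and 13.35 in Pdgf Cre tumours and 13.40, 13.09 and 13.05 in Pdgf tumours. Cortical bound RNA read 11.28, 11.59 and 11.37 in progenitors, 11.78, 11.58 and 11.27 in Olig2 cells, 5.29, 5.49 and 6.65 in mature oligodendrocytes and 12.35, 12.36 and 12.20 in astrocytes. Every tumour bound array thus lay above every cortical array on this scale, and among cortical populations astrocytes lay above progenitors. In the values as deposited the gap was narrow, with a lowest tumour bound array of 12.79 and a highest astrocyte array of 12.72. Tumour cells were not tested against astrocytes, and this order was not examined after median centring. Neurons were dim (3.02 ± 0.43, n = 3). Total RNA read 10.54, 9.06 and 7.37 in Recruited tumours, 11.91 ± 0.25 in Pdgf Cre tumours, 12.32 ± 0.14 in Pdgf tumours (n = 3 each) and 6.90 ± 0.37 in cortex (n = 5), with overlap between Recruited tumours and cortex.

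Lhfpl3, the membrane protein, and Rlbp1, the retinoid binder, were at their highest in progenitors. Lhfpl3 bound RNA read 10.36, 11.39 and 9.98 in Recruited tumours, 12.28, 11.97 and 12.54 in Pdgf Cre tumours and 11.42, 11.78 and 11.59 in Pdgf tumours. It read 12.65, 12.80 and 13.00 in progenitors and 10.59, 10.63 and 11.11 in cortical Olig2 cells. The progenitor arrays overlapped no other bound group on this scale, and cortical Olig2 cells overlapped Recruited tumours. In the values as deposited, progenitors overlapped Pdgf Cre tumours, with a lowest progenitor array of 12.21 and a highest Pdgf Cre bound array of 12.32. Lhfpl3 was above the dim limit in neurons (6.58 ± 0.10, n = 3) and cortex total RNA (7.26 ± 0.12, n = 5), and dim in mature oligodendrocytes (3.80 ± 0.01) and astrocytes (3.24 ± 0.12, n = 3 each). Rlbp1 bound RNA read 11.79, 11.53 and 11.49 in Recruited tumours, 11.42, 11.76 and 10.93 in Pdgf Cre tumours and 10.87, 11.54 and 11.47 in Pdgf tumours. In cortex it read 13.56, 13.74 and 14.01 in progenitors, 12.55, 12.45 and 12.40 in Olig2 cells, 6.21, 6.21 and 6.94 in mature oligodendrocytes and 12.04, 11.29 and 12.11 in astrocytes. Progenitors and then cortical Olig2 cells lay above all tumour arrays, which overlapped astrocytes. Rlbp1 was dim in neurons (5.27 ± 0.12, n = 3). Total RNA of Recruited tumours read 12.07, 11.79 and 8.65 for Lhfpl3 and 11.11, 8.55 and 6.83 for Rlbp1, with the third array lowest for both. Lhfpl3 total RNA averaged 12.75 ± 0.19 in Pdgf Cre and 11.89 ± 0.04 in Pdgf tumours (n = 3 each), and its Pdgf Cre arrays overlapped the bound arrays of progenitors. Rlbp1 total RNA averaged 10.84 ± 0.41 in Pdgf Cre tumours, 11.11 ± 0.29 in Pdgf tumours (n = 3 each) and 8.14 ± 0.14 in cortex (n = 5).

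**Figure D1:**
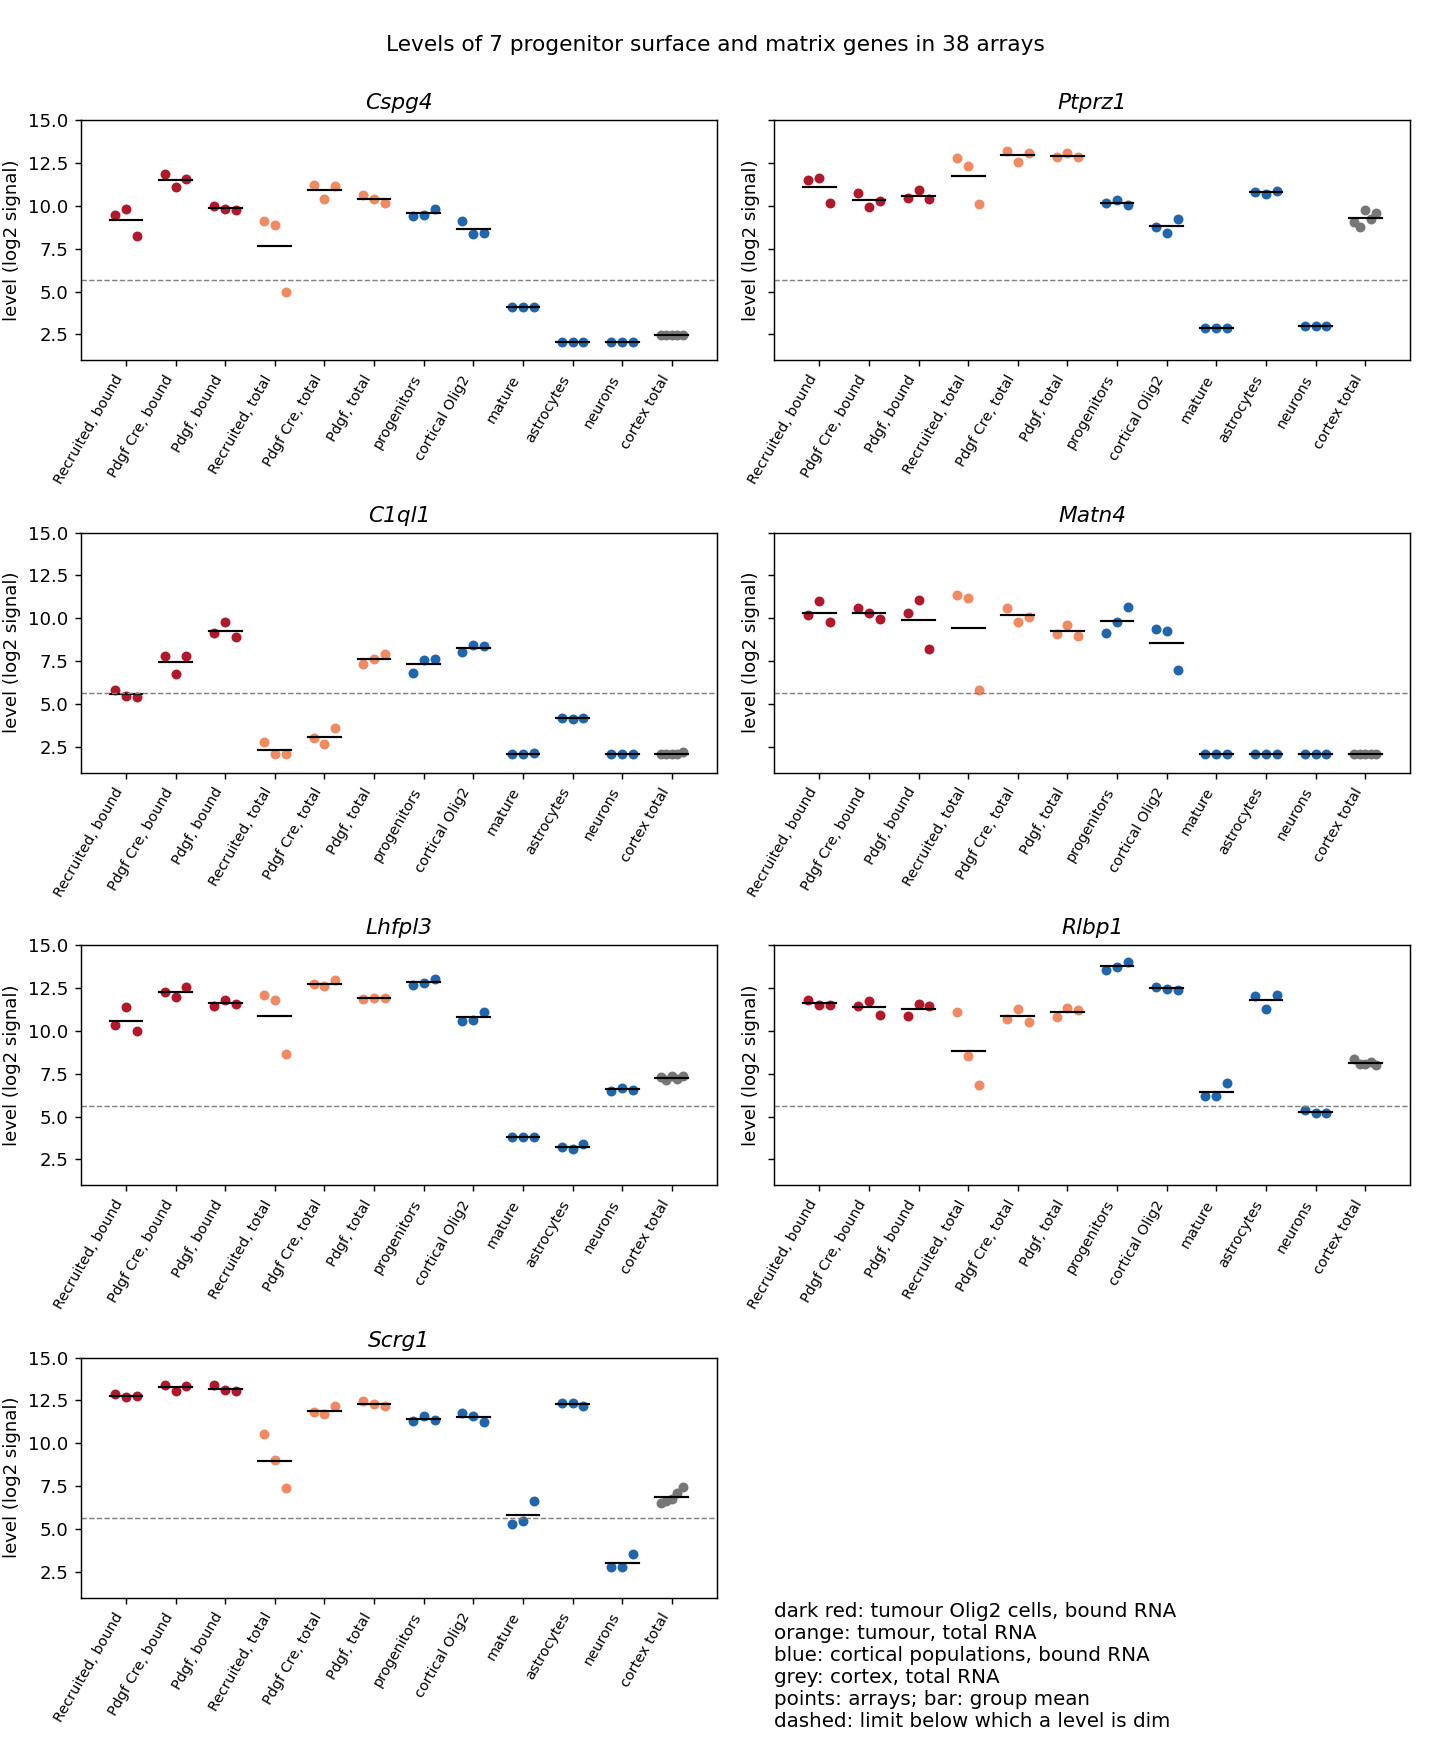
Levels of the 7 genes (y axis, log2 signal) in the 12 groups (x axis), with 1 point per array, a bar at the group mean and a dashed line at the dim limit of 5.64. Matn4 is at 2.08 in mature oligodendrocytes, astrocytes and neurons, whereas Scrg1 is bright in astrocytes, and C1ql1 steps up in bound RNA over Recruited, Pdgf Cre and Pdgf tumours.

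The first comparison set progenitors against other cortical cells. All 7 members rose in progenitors against mature oligodendrocytes, where 18.8% of all tested genes passed higher and 19.9% lower. Rlbp1 averaged 13.77 ± 0.23 in progenitors and 6.45 ± 0.42 in mature oligodendrocytes (n = 3 each), a rise of 160-fold (log2 difference 7.32 ± 0.52 SE, adjusted p 5.4e-13). Scrg1 was 48.6-fold higher (5.60 ± 0.43, adjusted p 2.31e-12), although 1 of the 3 mature oligodendrocyte arrays was above the dim limit and set their mean of 5.81 just over it. The other 5 were dim in mature oligodendrocytes, so their rises are bounds: at least 145-fold for Lhfpl3, 23.1-fold for Ptprz1, 18.7-fold for Matn4, 15.2-fold for Cspg4 and 3.24-fold for C1ql1. The median difference of the members was 7.30, or 4.53 with dim levels raised to the limit, against -0.02 over all tested genes. Since the genes were chosen as known progenitor genes, this count describes them and is not independent evidence of their direction.

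Against astrocytes, 5 members rose and none fell, with 26.8% of all tested genes passing higher and 24.6% lower. Lhfpl3 (at least 145-fold), Matn4 (at least 18.7-fold), Cspg4 (at least 15.2-fold) and C1ql1 (at least 3.24-fold) were dim in astrocytes, and Rlbp1 was 3.88-fold higher in progenitors (1.96 ± 0.52, adjusted p 0.00151). Ptprz1 and Scrg1 did not pass, with log2 differences of -0.60 ± 0.42 (adjusted p 0.199) and -0.89 ± 0.43 (adjusted p 0.0634). The Scrg1 difference depended on the scale, being -1.57 (adjusted p 0.00125) on the values as deposited and -1.71 (adjusted p 0.000522) after centring each array on its median. That of Ptprz1 passed after centring, at -1.10 (adjusted p 0.0108). Astrocyte markers were above the dim limit for 5 of 8 genes in progenitor RNA (list mean 6.29 to 7.03; Slc1a2, Aqp4 and Sox9 were dim) and for all 8 in astrocyte RNA (12.2 to 12.4), and their part in these values was not tested.

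Against cortical Olig2 cells, a mixture of progenitors and older cells, 3 members rose and none fell (18.8% of tested genes passed higher, 18.3% lower). Lhfpl3 was 4.12-fold higher (2.04 ± 0.46, adjusted p 0.000378), Ptprz1 2.59-fold (1.37 ± 0.42, adjusted p 0.00556) and Rlbp1 2.47-fold (1.30 ± 0.52, adjusted p 0.0329). The Rlbp1 call was lost when any of 5 of the 6 arrays was left out, for example at 1.18 (adjusted p 0.0909) without the third progenitor array, and after centring, at 0.97 (adjusted p 0.0793). C1ql1 went the other way by less than 2-fold, at -0.95 ± 0.26 (adjusted p 0.00247), and it passed 2-fold without the second or the third progenitor array (-1.07 and -1.10) or the first Olig2 array (-1.07). Cspg4 (0.94), Matn4 (1.32) and Scrg1 (-0.13) did not pass. The mature oligodendrocyte markers averaged 10.8 to 11.2 in progenitors and 13.0 to 13.1 in cortical Olig2 cells, with 8 of 8 above the dim limit in both, and their part was not tested.

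**Figure D2:**
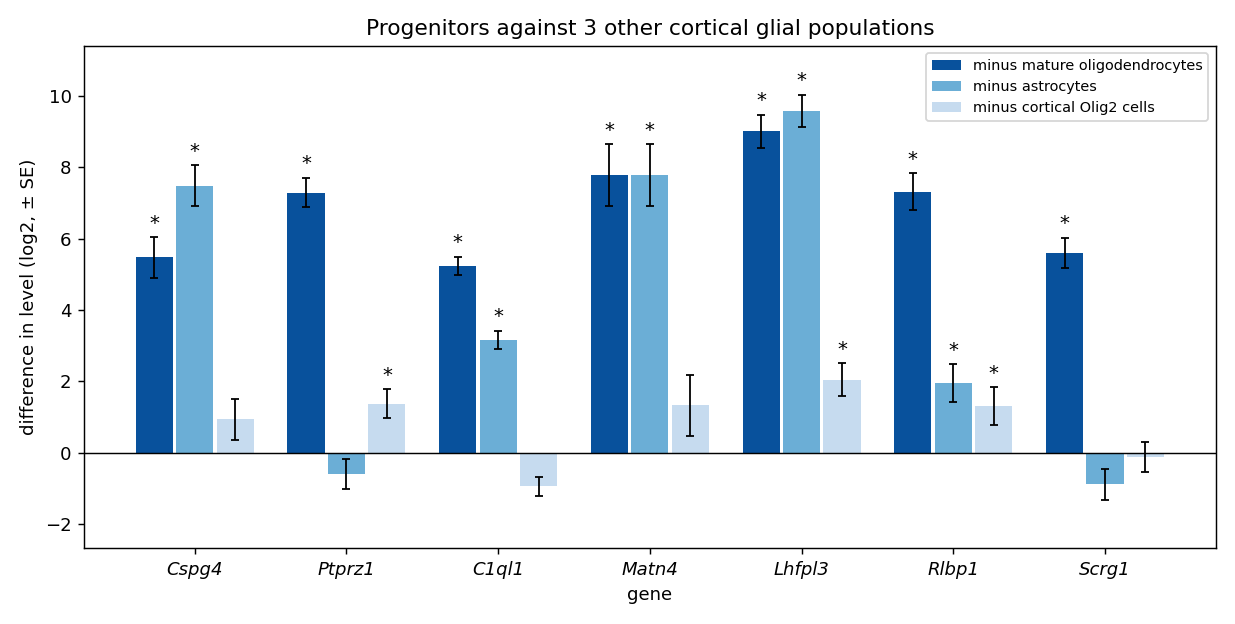
Difference in level (y axis, log2, error bars SE of the model) of each of the 7 genes (x axis) between progenitors and mature oligodendrocytes, astrocytes or cortical Olig2 cells, with an asterisk where the gene passed. The bars against mature oligodendrocytes are all above 5, while those of Ptprz1 and Scrg1 against astrocytes are below 0; differences against dim groups depend on the floor of the scale.

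Each cortical population was also set against total RNA of cortex. In bulk RNA of a tissue, fewer cells of a type and less RNA per cell cannot be told apart. In progenitors 6 members rose and none fell (24.4% and 23.8% of tested genes passed higher and lower): Rlbp1 by 49.5-fold, Lhfpl3 by 47.0-fold, Scrg1 by 22.9-fold, Matn4 by at least 18.7-fold, Cspg4 by at least 15.2-fold and C1ql1 by at least 3.24-fold. Ptprz1 differed by 0.89 ± 0.37 (adjusted p 0.0332), less than 2-fold, and passed at 1.01 without the third cortex array. In cortical Olig2 cells the same 6 rose (29.5% higher, 26.6% lower), and Ptprz1 differed by -0.48 (adjusted p 0.239). In mature oligodendrocytes 4 members fell (25.2% higher, 27.7% lower), Ptprz1 by at least 12.4-fold, Lhfpl3 by at least 3.08-fold, Rlbp1 by 3.22-fold and Scrg1, above the limit in 1 of 3 arrays, by 2.12-fold (-1.09, adjusted p 0.012). Cspg4 passed higher there with both groups dim. The Scrg1 call was lost without the first or second mature oligodendrocyte array (-0.83 and -0.92) or the fifth cortex array (-0.95). In astrocytes Scrg1 rose 42.5-fold, Rlbp1 12.8-fold and Ptprz1 2.82-fold, Lhfpl3 fell at least 3.08-fold, and C1ql1 passed higher with both groups dim (31.1% higher, 29.8% lower). In neurons Ptprz1 fell at least 12.4-fold, Rlbp1 at least 5.64-fold and Scrg1 at least 2.38-fold, and none rose (13.4% higher, 14.8% lower). Lhfpl3 in neurons differed by -0.68 (adjusted p 0.167).

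The tumour comparison asked how Olig2 cells of each model differ from Olig2 cells of normal cortex. Ptprz1 and Scrg1 rose in all 3 models, Cspg4 and Lhfpl3 rose in Pdgf Cre tumours and C1ql1 fell in Recruited tumours. Ptprz1 was 4.93-fold higher in Recruited tumours (2.30 ± 0.42, adjusted p 3.65e-05), 2.85-fold in Pdgf Cre tumours (1.51, adjusted p 0.0026) and 3.45-fold in Pdgf tumours (1.79, adjusted p 0.000606). Scrg1 was 2.33-fold higher in Recruited tumours (1.22 ± 0.43, adjusted p 0.0185), 3.28-fold in Pdgf Cre tumours (1.72, adjusted p 0.00104) and 3.10-fold in Pdgf tumours (1.63, adjusted p 0.0019). No tumour array of either gene overlapped the cortical Olig2 arrays. The 3 comparisons share those cortical arrays. The Scrg1 call in Recruited tumours was lost without the third cortical Olig2 array (1.08, adjusted p 0.0668). It was also lost with the replicate number as a block (0.97, adjusted p 0.0555). That block joined same-numbered arrays within cortex as well as within each tumour model. The tumour pairs are balanced, so only the cortical part of the block moved this difference.

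Recruited tumours had 2 members higher and 1 lower than cortical Olig2 cells, where 12.9% of tested genes passed higher and 14.6% lower. C1ql1 was the lower one, by at least 6.26-fold (-2.71 ± 0.26, adjusted p 7.27e-10), its mean of 5.58 being just under the dim limit. Cspg4 differed by 0.56 (adjusted p 0.441), Matn4 by 1.78 ± 0.86 (adjusted p 0.085), Rlbp1 by -0.86 and Lhfpl3 by -0.20. Without the arrays numbered 3 of the Recruited tumours, Cspg4 (1.03, adjusted p 0.000253) and Matn4 (2.05, adjusted p 0.00374) also passed. Ptprz1, C1ql1 and Scrg1 kept their calls there (2.78, -2.63 and 1.22), and Lhfpl3 stood at 0.10. These differences moved because the bound array numbered 3 was left out, which read 8.25 for Cspg4. The total RNA array of that number enters this comparison only through the shared spread. In the values as deposited Lhfpl3 stood at 0.11 and Matn4 passed at 2.18.

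Pdgf Cre tumours had 4 members higher and none lower (17.7% of tested genes higher, 18.3% lower). Besides Ptprz1 and Scrg1, Cspg4 was 7.25-fold higher (2.86 ± 0.57, adjusted p 9.03e-05) and Lhfpl3 2.81-fold higher (1.49 ± 0.46, adjusted p 0.00686). C1ql1 was lower by less than 2-fold (-0.86, adjusted p 0.00591) and passed 2-fold in the values as deposited (-1.03) and without the first or the third Pdgf Cre array. Matn4 (1.75, adjusted p 0.0816) and Rlbp1 (-1.10, adjusted p 0.073) did not pass. Rlbp1 passed with the replicate block, at -1.07 (adjusted p 0.0489).

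Pdgf tumours had 2 members higher and none lower (16% of tested genes in each direction), Ptprz1 and Scrg1. C1ql1 was above cortical Olig2 cells by just under 2-fold (0.98 ± 0.26, adjusted p 0.00215), and it passed in the values as deposited (1.199) and without either the second or the third cortical Olig2 array or the first or the third Pdgf array (1.03 to 1.17). Cspg4 differed by 1.22 (adjusted p 0.0717) and Rlbp1 by -1.17 (adjusted p 0.0585), each without overlap between the arrays compared. Both passed with the replicate block, at 1.21 (adjusted p 0.00675) and -1.15 (adjusted p 0.0381). Matn4 (1.33) and Lhfpl3 (0.82) did not pass, and Matn4 passed at 2.16 (adjusted p 0.0498) without the third Pdgf array.

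Markers of other cells moved with these comparisons, and their part in them was not tested. Mature oligodendrocyte markers above the dim limit numbered 8 of 8 in Recruited tumour Olig2 cells (list mean 10.8 to 13.4), 7 in Pdgf Cre (6.46 to 8.61; Aspa dim), 4 in Pdgf (6.29 to 6.54; Mog, Mag, Mobp and Aspa dim) and 8 in cortical Olig2 cells (13.0 to 13.1). Astrocyte markers numbered 8 of 8 in Recruited (9.93 to 10.6), 4 in Pdgf Cre (6.01 to 6.28), 3 in Pdgf (5.35 to 5.47) and 7 in cortical Olig2 cells (8.86 to 8.99). Of 4 dividing cell markers, all were above the limit in the 3 tumour models, with list means of 8.53 to 10.7 in Recruited, 11.3 to 11.8 in Pdgf Cre and 9.87 to 10.6 in Pdgf, and 3 were above it in cortical Olig2 cells (7.98 to 8.04; Top2a dim). The pericyte and smooth muscle markers, of the other cell type known for Cspg4, had 1 of 10 above the limit in each of these 4 groups. Pdgfrb and Rgs5 were dim in all of them.

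**Figure D3:**
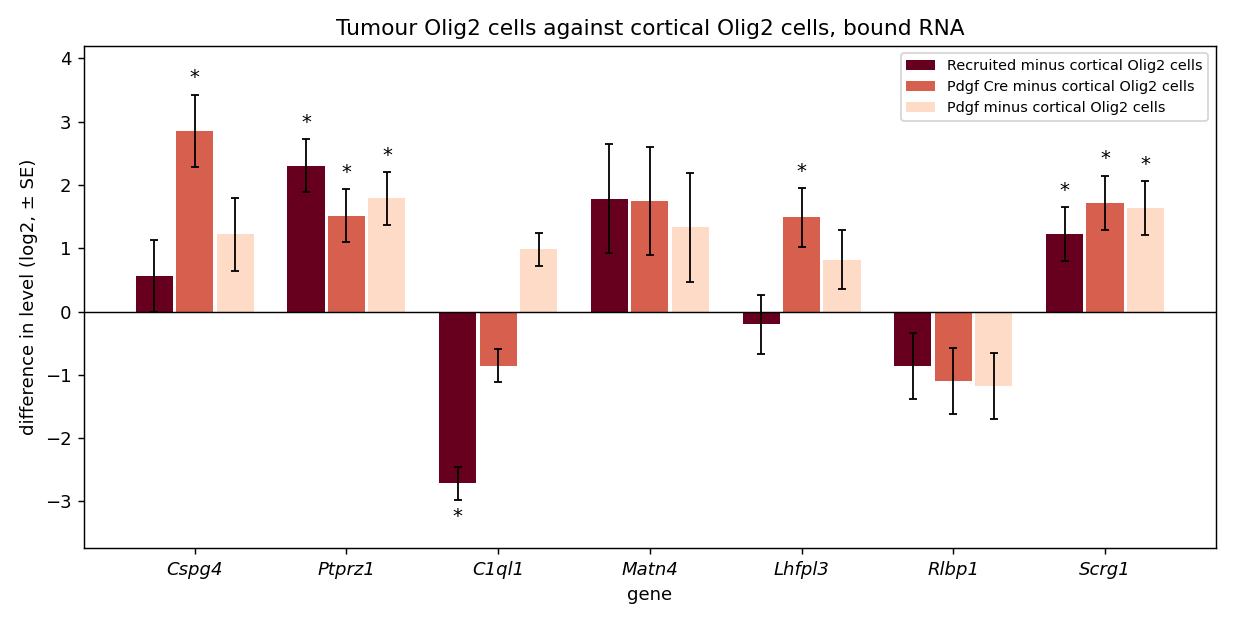
Difference in level (y axis, log2, error bars SE of the model) of each gene (x axis) between Olig2 cells of Recruited, Pdgf Cre or Pdgf tumours and cortical Olig2 cells, with an asterisk where the gene passed. Ptprz1 and Scrg1 carry asterisks in all 3 models, and the C1ql1 bar points down to -2.71 in Recruited tumours.

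Tumour Olig2 cells were also set against cortical progenitors. Scrg1 rose and Rlbp1 fell in all 3 models, in comparisons that share the same progenitor arrays. Scrg1 was higher by 1.35 (2.55-fold, adjusted p 0.00785) in Recruited, 1.85 (3.59-fold, adjusted p 0.000415) in Pdgf Cre and 1.76 (3.39-fold, adjusted p 0.000729) in Pdgf tumours. Rlbp1 differed by -2.17 (4.49-fold lower, adjusted p 0.000789) in Recruited, -2.40 (5.28-fold lower, adjusted p 0.000215) in Pdgf Cre and -2.48 (5.57-fold lower, adjusted p 0.000163) in Pdgf tumours. The arrays of neither gene overlapped between tumours and progenitors. Recruited tumours had 1 member higher and 3 lower (17.1% of tested genes higher, 18.4% lower), with C1ql1 at least 3.24-fold lower and Lhfpl3 4.74-fold lower (-2.24, adjusted p 0.000136). Ptprz1 there differed by 0.93 (adjusted p 0.0557) and passed at 1.41 without the Recruited arrays numbered 3 and at 1.30 in the values as deposited. Without those arrays Scrg1 (1.35), C1ql1 (-1.68), Lhfpl3 (-1.95) and Rlbp1 (-2.11) kept their calls. Pdgf Cre tumours had 2 higher and 1 lower (21.1% higher, 22.5% lower), with Cspg4 3.79-fold higher (1.92, adjusted p 0.00421). Pdgf tumours had 2 higher and 2 lower (19.9% of tested genes in each direction), with C1ql1 3.82-fold higher (1.93, adjusted p 2.44e-07) and Lhfpl3 2.34-fold lower (-1.22, adjusted p 0.0227). That Lhfpl3 call was lost without the third progenitor array (-1.13, adjusted p 0.0653) or the first Pdgf array (-1.14, adjusted p 0.0668), and in the values as deposited (-0.85).

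Between the models, C1ql1 differed in every pair and Cspg4 in the pairs with Pdgf Cre tumours. C1ql1 was lower by 3.58-fold in Pdgf Cre against Pdgf tumours (-1.84 ± 0.26, adjusted p 1.43e-06), by at least 12.4-fold in Recruited against Pdgf tumours (-3.69, adjusted p 7.66e-13) and by at least 3.46-fold in Recruited against Pdgf Cre tumours (-1.86, adjusted p 5.62e-07). Without the Recruited arrays numbered 3, C1ql1 differed by -3.62 in Recruited against Pdgf tumours and by -1.78 in Recruited against Pdgf Cre tumours. Cspg4 was 3.12-fold higher in Pdgf Cre than in Pdgf tumours (1.64 ± 0.57, adjusted p 0.0249). It was 4.93-fold lower in Recruited than in Pdgf Cre tumours (-2.30, adjusted p 0.00104; -1.83 without the arrays numbered 3). The first of these calls was lost without the first or the third Pdgf Cre array (1.47 and 1.60) or the second or the third Pdgf array (1.62 and 1.58). Lhfpl3 was 3.23-fold lower in Recruited than in Pdgf Cre tumours (-1.69, adjusted p 0.00253, and -1.39 without the arrays numbered 3). In Recruited against Pdgf tumours it differed by -1.02 (adjusted p 0.0694), passing with the replicate block (adjusted p 0.00877). Counts higher and lower were 1 and 1 in Pdgf Cre against Pdgf tumours (7.77% and 8.87% of tested genes), 0 and 1 in Recruited against Pdgf tumours (12.8% and 13%) and 0 and 3 in Recruited against Pdgf Cre tumours (17.5% and 17%). Ptprz1, Matn4, Rlbp1 and Scrg1 passed in none of the 3 pairs. Ptprz1 passed in Recruited against Pdgf Cre tumours at 1.27 without the arrays numbered 3 and at 1.26 in the values as deposited.

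Bound RNA of Olig2 cells was then set against total RNA of the same tumour model. Such a difference mixes the cells in which a transcript is found with its binding to ribosomes, and these cannot be told apart here. The same holds for the cortical populations against total RNA of cortex. Ptprz1 fell in bound RNA of Pdgf Cre tumours by 6.19-fold (-2.63 ± 0.42, adjusted p 3.37e-06) and of Pdgf tumours by 5.03-fold (-2.33, adjusted p 2.28e-05), and in Recruited tumours it differed by -0.64 (adjusted p 0.18). In same-numbered arrays the Ptprz1 difference was -2.83 to -2.45 in Pdgf Cre, -2.42 to -2.18 in Pdgf and -1.25 to 0.03 in Recruited tumours, so 1 of the 9 pairs was above 0. C1ql1 rose in bound RNA in Pdgf Cre tumours by at least 3.46-fold (adjusted p 1.26e-14) and in Pdgf tumours by 3.12-fold (1.64, adjusted p 4.16e-06), and passed higher in Recruited tumours with both groups dim. The C1ql1 pairs of Pdgf tumours differed by 0.97 to 2.13, and for the other two models, with total RNA dim in every array, no pair difference is given. Tested as an interaction in the limma model, the difference between bound and total RNA was higher in Recruited than in Pdgf tumours for 5 members and lower for none (16% of all tested genes passed higher and 14% lower). Between Recruited and Pdgf Cre tumours it was higher for 3 and lower for 1 (13.8% and 12.9% of all genes), and between Pdgf Cre and Pdgf tumours higher for 1 and lower for none (6.04% and 6.3%). C1ql1 is 1 of the members in each of these counts, higher in the first and the third and lower in the second, and rests on dim signals there. Scrg1 was 13.7-fold higher in bound RNA of Recruited tumours (3.77 ± 0.43, adjusted p 8.27e-09) and 2.54-fold higher in Pdgf Cre tumours (1.35, adjusted p 0.00765). It differed by 0.86 (adjusted p 0.0927) in Pdgf tumours, passing at 1.55 after centring, and all 9 of its pairs were above 0.

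In Recruited tumours Rlbp1 (6.83-fold, 2.77 ± 0.52, adjusted p 3.5e-05) and Cspg4 (2.91-fold, 1.54 ± 0.57, adjusted p 0.0188) also rose in bound RNA, for 4 members higher and none lower, where 24.1% of tested genes passed higher and 20.2% lower. Pdgf Cre tumours had 2 higher and 1 lower (20% and 18.1%) and Pdgf tumours 1 and 1 (16.9% and 15.3%). The Recruited values turned on the third total RNA array. Without both arrays numbered 3, Cspg4 stood at 0.67, under 2-fold, and Lhfpl3 passed lower at -1.06 (adjusted p 0.000159), while Rlbp1 (1.83, adjusted p 0.00103) and Scrg1 (2.97, adjusted p 1.19e-07) kept their calls and Ptprz1 stood at -0.97. Without the third total RNA array alone, Cspg4 stood at 0.20 (adjusted p 0.566) and Ptprz1 passed lower at -1.45 (adjusted p 0.000231). Fitted on the 6 Recruited arrays alone, neither Cspg4 (adjusted p 0.38) nor Rlbp1 (adjusted p 0.104) passed, and Cspg4 was lost in the values as deposited (1.02, adjusted p 0.0787). Matn4 passed in none of the 3 models, with pair differences of -1.18 to 3.98 in Recruited, -0.15 to 0.52 in Pdgf Cre and -0.77 to 1.46 in Pdgf tumours. Cspg4 pairs were all above 0 in Recruited (0.38 to 3.29) and Pdgf Cre tumours (0.38 to 0.69) and all below 0 in Pdgf tumours (-0.61 to -0.41). After centring each array on its median, the Lhfpl3 difference turned from below 0 to 0.34 in Pdgf and 0.20 in Pdgf Cre tumours. Markers of other cells moved with these comparisons too: microglia and macrophage markers above the dim limit numbered 1 or 2 of 7 in bound RNA and 4 or 5 in total RNA of tumours, pericyte and smooth muscle markers 1 of 10 in bound RNA and 5 to 7 in total RNA. The astrocyte list, of the other cell type known for Ptprz1, averaged 9.93 to 10.6 in bound and 8.64 to 9.05 in total RNA of Recruited tumours, 6.01 to 6.28 in bound and 7.81 to 8.63 in total RNA of Pdgf Cre tumours, and 5.35 to 5.47 in bound and 7.33 to 8.10 in total RNA of Pdgf tumours. Astrocyte markers above the limit numbered 8 of 8 in bound and 7 in total RNA of Recruited, 4 and 6 of Pdgf Cre and 3 and 6 of Pdgf tumours. In bound RNA Aldh1l1, Slc1a2, Aqp4 and Gjb6 were dim in both Pdgf Cre and Pdgf tumours, and Sox9 in Pdgf tumours. In total RNA Slc1a2 was dim in all 3 models, Aldh1l1 in Pdgf Cre tumours and Sox9 in Pdgf tumours. The neuron list averaged 5.996 to 6.68 in bound and 8.73 to 11.6 in total RNA of Recruited, 4.99 to 5.18 and 8.37 to 9.09 of Pdgf Cre, and 4.91 to 5.05 and 7.75 to 8.85 of Pdgf tumours. The part of all these markers in the results was not tested.

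**Figure D4:**
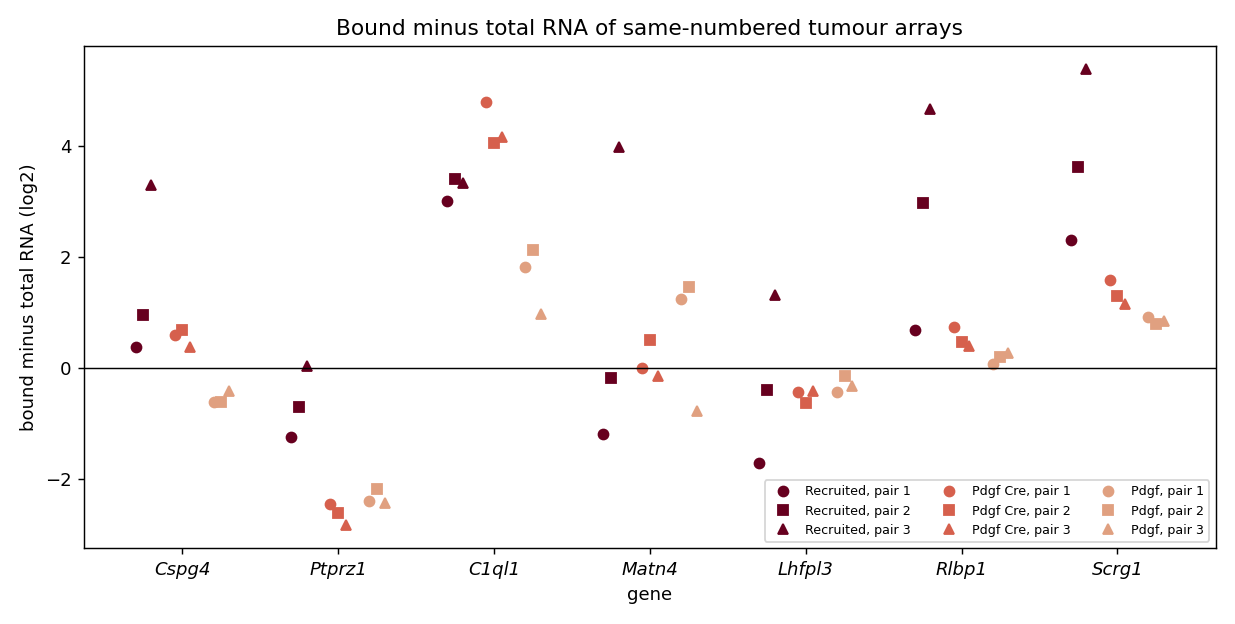
Bound minus total RNA (y axis, log2) of each gene (x axis) in same-numbered tumour arrays, 3 pairs for each of Recruited, Pdgf Cre and Pdgf tumours, with marker shape for the pair number. Scrg1 is above 0 in all 9 pairs, Ptprz1 lies below -2 in every Pdgf Cre and Pdgf pair, and the third Recruited pair of every gene except C1ql1 stands above the other two. The C1ql1 points of Recruited and Pdgf Cre tumours are set against dim total RNA, so their height is not measured.

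Total RNA of the tumours was set against total RNA of cortex to see the members in whole tissue. Recruited tumours had 5 members higher and none lower (23.7% of tested genes higher, 26.4% lower), Pdgf Cre tumours 6 and none (22.8% and 25%) and Pdgf tumours 7 and none (25% and 25.5%). Cspg4 rose at least 4.004-fold in Recruited, 39.1-fold in Pdgf Cre and 26.8-fold in Pdgf tumours, and Matn4 at least 14.0-fold, 22.9-fold and 12.007-fold, in the same order. Lhfpl3 rose 11.9-fold, 44.8-fold and 24.7-fold, Ptprz1 5.48-fold, 12.7-fold and 12.4-fold, and Scrg1 4.27-fold, 32.4-fold and 43.0-fold. Rlbp1 rose 6.48-fold in Pdgf Cre and 7.82-fold in Pdgf tumours and differed by 0.69 (adjusted p 0.182) in Recruited tumours. Without the third Recruited arrays Rlbp1 passed there too, at 1.69 (adjusted p 0.000257). The other differences of Recruited tumours were also larger without those arrays, 6.52 for Cspg4, 9.19 for Matn4, 4.66 for Lhfpl3, 3.27 for Ptprz1 and 2.90 for Scrg1, whereas Scrg1 stood at 1.32 without the first Recruited array. C1ql1 rose at least 3.97-fold in Pdgf tumours and was dim on both sides in the other two models. Cspg4 was above the dim limit in 2 of 3 Recruited arrays. Pericyte and smooth muscle markers above the limit numbered 5 of 10 in Recruited (list mean 4.67 to 5.98), 7 in Pdgf Cre (5.94 to 6.11), 7 in Pdgf tumours (5.75 to 6.57) and 2 in cortex (3.45 to 3.58; Rgs5 dim). Dividing cell markers numbered 4 of 4 in Recruited (5.77 to 10.7), Pdgf Cre (10.6 to 11.3) and Pdgf tumours (9.79 to 10.4) and 1 in cortex (3.82 to 4.31; Top2a, Cdk1 and Rrm2 dim). Microglia and macrophage markers numbered 4 of 7 in Recruited (6.08 to 8.72), 5 in Pdgf Cre (7.78 to 8.47), 5 in Pdgf tumours (8.28 to 8.54) and 3 in cortex (5.05 to 5.40). Their part in these rises was not tested.

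The genes whose 12 group means were most like those of a member were found by Pearson's r over the group means of all tested genes outside the 7. These values are a description of 12 points, dim levels included, that share 1 scale and the same arrays. For Cspg4 they were Prc1 (0.988), Ckap2 (0.986) and Cdc6 (0.985), and for Matn4 Pbk (0.986), Nusap1 (0.981) and Prc1 (0.977). Prc1, Ckap2 and Nusap1 encode proteins of the mitotic spindle and Cdc6 a factor of DNA replication. For Lhfpl3 they were Insyn2b (0.989), Ppfibp1 (0.974) and Arhgef7 (0.970). Ptprz1 was followed by Sh3pxd2b (0.981), Abcc4 (0.970) and Zeb1 (0.953), Zeb1 being a transcription factor. C1ql1 was followed by Aldh18a1 (0.962), Prkra (0.952) and Chst5 (0.923), Rlbp1 by Rgcc (0.958), Tmem100 (0.944) and Nfatc1 (0.942), and Scrg1 by Atp6v0e (0.977), Zfp521 (0.974) and Cpq (0.970). Among the members themselves Rlbp1 and Scrg1 were also alike (0.906), and Ptprz1 and C1ql1 were the least alike (0.404).

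Partners and relatives of the members were taken from 9 lists of 73 genes, of which 65 were measured and 55 tested. Between progenitors and mature oligodendrocytes 21 of the 55 passed higher and 9 lower, 5 of these 30 with both groups dim. Over all tested genes, 18.8% passed higher and 19.9% lower there, which is also the share for each list below. The median difference was 0.45, against -0.02 over all tested genes. Of 10 tested ligands and partners of Ptprz1, 5 rose in progenitors and none fell. Midkine (Mdk), a growth factor ligand, rose at least 22.1-fold, the adhesion molecule Chl1 at least 5.54-fold, the kinase Fyn 7.50-fold and contactin-1 (Cntn1), an adhesion partner, 4.39-fold, whereas pleiotrophin (Ptn), the other ligand, differed by -0.17 (adjusted p 0.742). Of 6 other receptor phosphatases 4 fell and 1 passed higher while dim in both (Ptprg). Ptprd fell 4.70-fold, Ptpra 2.62-fold and Ptprk at least 1.61-fold.

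Of 9 partners of NG2, 3 rose in progenitors and none fell. Pdgfra, the receptor that marks progenitors, rose at least 26.0-fold and the scaffold protein Grip1 at least 2.82-fold, the protease Mmp14 passed while dim in both, and Plat, a protease that binds NG2, differed by -0.89 (adjusted p 0.056). Of 12 proteoglycans and matrix genes 8 passed higher, 3 of them dim in both groups, and 2 fell. The brain proteoglycan Cspg5 rose 32.1-fold and the glypican Gpc5 20.7-fold, whereas Hapln2, a link protein of nodes of Ranvier, fell at least 11.2-fold and the laminin chain Lama2 at least 12.8-fold. Of 6 C1q-like family genes 2 rose, C1ql2 by at least 6.50-fold and C1ql3 by 2.58-fold. Adgrb3, the receptor of C1ql1, differed by 0.72 (adjusted p 0.0199), less than 2-fold, and C1qtnf4 by -0.54 (adjusted p 0.512). The single tested matrilin relative, Matn2, fell (-1.06, adjusted p 0.0077). None of 4 LHFPL family genes passed, with Lhfp at 0.96 (adjusted p 0.0194) and Lhfpl2 at 0.12, and Lhfpl4 and Lhfpl5 dim in both groups. Of 7 retinoid genes 2 rose, the retinol dehydrogenase Rdh10 by 3.92-fold and the retinaldehyde dehydrogenase Aldh1a1 by 2.19-fold, and 2 fell, Rdh11 by 4.502-fold and Rbp4 by at least 1.21-fold. Bst1, the receptor of SCRG1, was not tested because of its dim signal.

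In tumour against cortical Olig2 cells, 24 of the 55 passed higher and 6 lower in Recruited tumours, 14 and 13 in Pdgf Cre tumours and 21 and 10 in Pdgf tumours, including 7, 8 and 9 calls with both groups dim. Fibronectin (Fn1) rose at least 3.75-fold in Recruited, 1.45-fold in Pdgf Cre and 2.92-fold in Pdgf tumours, and Aldh1a1 differed by 3.02, 2.64 and 2.49 in that order. Hapln2 fell in Pdgf tumours by at least 5.04-fold and Ptprd by 4.15-fold. The galectin Lgals3, a ligand of NG2, rose at least 5.02-fold and the collagen chain Col6a2, another ligand, at least 2.64-fold in Recruited tumours. The Recruited arrays were widely spread for these genes, with SDs of 2.09 for Lgals3, 1.35 for Col6a2, 1.78 for Fn1 and 1.18 for Aldh1a1. Partner results are not given without the Recruited arrays numbered 3. In Recruited tumours Chl1 rose at least 2.43-fold, Ptprk at least 1.81-fold and Lhfp 4.46-fold, and C1qtnf4 fell 4.71-fold. Lhfpl2 fell at least 5.01-fold in Pdgf Cre tumours, and in Pdgf tumours Rdh5 fell at least 1.13-fold and Matn2 2.19-fold. Tnc, a matrix ligand of Ptprz1, passed higher in Recruited tumours and Cbln2 lower in Pdgf tumours with both groups dim. By list, the partners of Ptprz1 had 5 higher and 2 lower in Recruited, 2 and 1 in Pdgf Cre and 3 and 1 in Pdgf tumours, those of NG2 had 5 and 1, 3 and 2, and 3 and 1, and the matrix list had 5 and 1, 3 and 5, and 7 and 3. The phosphatases had 3 and 0, 2 and 2, and 3 and 1, the C1q-like genes 2 and 1, 1 and 1, and 1 and 1, the LHFPL genes 2 and 1, 1 and 1, and 2 and 1, and the retinoid genes 2 and 0, 2 and 1, and 2 and 1. The share of all tested genes that passed is given above for each of these comparisons.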

How the data were processed

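The authors deposited 1 table of log2 GCRMA signals, per the submitters' processing notes (no version given), for 38 Affymetrix arrays hybridized after 2-cycle amplification, per the labels. Per the values, each group's arrays share a minimum of their own, as if GCRMA had been run group by group, which can narrow the spread within a group. It can also shift single genes between groups, which a common quantile normalization need not remove. For example, the deposited Cspg4 value was 3.35 in each mature oligodendrocyte array, 2.44 in each cortex total RNA array and 2.03 in each neuron array. The effect of such a run on the differences was not tested. Of 16395 probe sets, 64 controls and 687 without a gene were left out, and 15644 had 1 gene each. Columns of other samples not used numbered 0.

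The deposited log2 values were quantile normalized over the 38 arrays with limma 3.58.1 in R 4.3.3. The filter kept 9799 genes that exceeded log2 50 in 3 arrays or more and removed 5845. One limma model of 12 groups (26 residual degrees of freedom, eBayes, constant prior) gave 23 comparisons, each adjusted by Benjamini-Hochberg over all tested genes. The model was tested on simulated data. Alternatives were the deposited values, median centring, other filters, an intensity trend, 2-group fits, the replicate number as a block, each array left out and, chosen after seeing the data, both Recruited arrays numbered 3 left out. Same-numbered bound and total RNA arrays of tumours deviated together (r across genes 0.266 to 0.626 in 9 pairs, -0.486 to 0.087 in 18 other combinations), and cortical arrays did not (-0.362 to 0.214). Deviations from a group mean cancel within the group, so a positive same-number r pushes the other combinations lower. The 18 other values are thus no independent contrast.

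In 12 of 84 combinations of member and group, all dim, every array had 1 identical deposited value, so an SD near 0 there is no measured spread. The median gene SD ranged from 0.030 in neurons to 0.453 in Recruited total RNA. The members and gene lists were chosen with earlier results of these data known. Named partners were up to 4 genes per list with the largest change between progenitors and mature oligodendrocytes and up to 2 with the largest change in any tumour model, and the 3 genes most like each member. Ptn, Bst1 and single cell type markers were also named, outside that rule and after their values were seen.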

Additional observations from a re-analysis of the deposited data

Results flagged for a closer look

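In cortex total RNA, 1 of 5 arrays stood apart for C1ql1, at 2.22, and 1 for Matn4, at 2.09. Both genes were dim in all 5 arrays, with the other 4 at the floor of the scale (2.08), where any departure stands apart.

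The difference between bound and total RNA was compared between tumour models as an interaction in the limma model with Benjamini-Hochberg adjustment. Recruited exceeded Pdgf tumours by 2.08 for Cspg4 (adjusted p 0.0386), 1.70 for Ptprz1 (adjusted p 0.0214), 2.59 for Rlbp1 (adjusted p 0.0057) and 2.92 for Scrg1 (adjusted p 0.000249), where 16% of all tested genes passed higher and 14% lower. Against Pdgf Cre tumours the Recruited difference was 1.99 for Ptprz1 (adjusted p 0.00785), 2.24 for Rlbp1 (adjusted p 0.0173) and 2.43 for Scrg1 (adjusted p 0.00188), where 13.8% passed higher and 12.9% lower. C1ql1 also passed in all 3 pairs, at 2.69 for Pdgf Cre minus Pdgf (6.04% of genes passed higher and 6.3% lower), 1.62 for Recruited minus Pdgf and -1.08 for Recruited minus Pdgf Cre tumours. These C1ql1 values rest on dim signals, in total RNA of Pdgf Cre tumours and in both kinds of RNA of Recruited tumours, and no size or direction is read from them. With dim means raised to the limit of 5.64 they were 0.15, -1.64 and -1.79 in the same order.

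Without the Recruited arrays numbered 3 the values against Pdgf tumours were 1.21 for Cspg4, 1.36 for Ptprz1, 1.64 for Rlbp1 and 2.11 for Scrg1. Against Pdgf Cre tumours they were 1.66 for Ptprz1 and 1.62 for Scrg1, and Rlbp1 no longer passed (1.29, adjusted p 0.0803). In that fit Cspg4 passed in Pdgf Cre minus Pdgf tumours (1.10, adjusted p 0.00339), the same value having had an adjusted p of 0.412 with all arrays. Leaving out the third Recruited total RNA array alone ended the calls of Cspg4 (0.74, adjusted p 0.129) and Ptprz1 (0.88, adjusted p 0.0911) against Pdgf tumours and of Rlbp1 against Pdgf Cre tumours (1.24, adjusted p 0.0692). The Cspg4 call was also lost in the values as deposited (1.68, adjusted p 0.0625), after centring (1.63, adjusted p 0.0732) and with no filter (adjusted p 0.0504).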

How the results depend on the processing

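A filter at log2 100 and an intensity trend changed no call of a member. Members passing in Pdgf tumours against cortical Olig2 cells numbered 2, and 5 in the values as deposited, 5 after centring, 4 with only the 2 groups, 4 with the replicate block and 2 to 4 with single arrays left out. Those in Recruited against Pdgf tumours numbered 1, and 2 after centring, 2 with the block and 1 to 2 with single arrays left out. Those in Recruited bound against total RNA numbered 4, and 2 with only the 2 groups (Cspg4, adjusted p 0.38, and Rlbp1, adjusted p 0.104, were lost). Recruited against cortical Olig2 cells had 3, and 5 without both Recruited arrays numbered 3. Pdgf Cre against Pdgf tumours had 1 to 2 with single arrays left out. With the block, Scrg1 in mature oligodendrocytes against cortex was lost (-0.83, adjusted p 0.0531) and C1ql1 there turned to 0.028. The replicate block changed no other call than those given here and above.

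Signs turned for these values, none of which had passed. In the values as deposited they were Matn4 in astrocytes against cortex (0.016), Lhfpl3 in Recruited against cortical Olig2 cells (0.11), C1ql1 in Pdgf Cre tumours against progenitors (-0.21), Rlbp1 and Scrg1 in Pdgf Cre against Pdgf tumours (-0.22 and -0.16) and the bound over total RNA difference of Lhfpl3 in Recruited minus Pdgf (-0.11) and minus Pdgf Cre tumours (-0.059). After centring they were Matn4 in astrocytes (0.27), Lhfpl3 bound against total RNA (0.34 in Pdgf, 0.20 in Pdgf Cre, 0.17 in Recruited), C1ql1 in Recruited total RNA against cortex (-0.0027) and the same Lhfpl3 differences (-0.17 and -0.029). Without both Recruited arrays numbered 3 they were Matn4 bound against total RNA (-0.68), Lhfpl3 against cortical Olig2 cells (0.10), Cspg4 against progenitors (0.091) and the Recruited minus Pdgf and minus Pdgf Cre differences of bound over total RNA for Matn4 (-1.32 and -0.80) and Lhfpl3 (-0.76 and -0.57).

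With single arrays left out, values crossed 0 as follows. Matn4 ran from -0.60 to 0.84 in Pdgf tumours against progenitors, -0.069 to 0.35 in Pdgf Cre bound against total RNA, -0.95 to 1.83 in Recruited bound against total RNA, -0.42 to 1.02 in Pdgf Cre against Pdgf, -0.31 to 0.30 in Recruited against Pdgf Cre and -0.38 to 1.05 in Recruited against Pdgf tumours. Its bound over total RNA differences ran from -1.35 to 0.084 (Pdgf Cre minus Pdgf), -1.07 to 1.70 (Recruited minus Pdgf Cre) and -1.59 to 1.18 (Recruited minus Pdgf). Lhfpl3 ran from -0.61 to 0.10 in Recruited against cortical Olig2 cells, -1.35 to 0.35 in Recruited bound against total RNA and, for the differences of these, -0.87 to 0.84 (minus Pdgf Cre) and -1.06 to 0.65 (minus Pdgf). C1ql1 ran from -0.029 to 0.028 in mature oligodendrocytes against cortex, -0.18 to 0.44 in Pdgf Cre tumours against progenitors and -0.025 to 0.34 in Recruited total RNA against cortex. Rlbp1 ran from -0.45 to 1.69 in the last and -0.13 to 0.30 in Pdgf Cre against Pdgf tumours, Ptprz1 from -0.072 to 0.32 in Pdgf Cre tumours against progenitors, and Cspg4 from -0.70 to 0.091 in Recruited tumours against progenitors and -0.36 to 1.72 in the bound over total RNA difference of Recruited minus Pdgf Cre tumours. The Recruited total RNA array numbered 3 set the end of several ranges.

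In the values as deposited the median of all genes shifted by over 0.1 in 15 of 23 comparisons (-0.41 to 0.63), and the share of higher calls by over 10 percentage points in 11. As deposited, and after quantile normalization, it was 75.4% and 47.5% in neurons against cortex, where 4768 and 2765 genes were called. In the same order it was 35.5% and 48.6% in progenitors against mature oligodendrocytes, 32.4% and 54.4% in Recruited, 24.1% and 52.5% in Pdgf Cre and 18.6% and 52.4% in Pdgf bound against total RNA. It was 63.4% and 47% in Recruited tumours against cortical Olig2 cells, 59.6% and 48.2% in these against progenitors, 70.7% and 50.7% in Recruited against Pdgf Cre and 29.7% and 46.7% in Pdgf Cre against Pdgf tumours. Against cortex total RNA it was 69.4% and 47.3% for Recruited and 65.6% and 49.5% for Pdgf tumours. The cause of these changes was not tested.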
